A study of Saccharomyces cerevisiae with 12 samples.

Results

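Enzymes that cut and rejoin the polysaccharides of the yeast cell wall are encoded by a small set of genes, of which 9 in Saccharomyces cerevisiae were followed from growth into stationary phase. They were UTR2 and CRH1, which join chitin to glucan, GAS1, GAS3 and GAS5 of the glucanosyltransferase family, and BGL2, SCW4, SCW10 and EXG1 of the glucanases and their relatives. The probe sets whose gene symbol in the platform annotation is one of these names were taken. This gave 9 probe sets for 9 genes, 1 each, among 5449 S. cerevisiae genes measured. The genes were chosen by enzyme class and with their log2 signals at all 4 times known, and UTR2 had already been seen among the lowest genes of every comparison with log phase. The differences of the 9 genes are therefore given as descriptions, with the standard error of the fit and with no p-value.

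The strain CENPK 113-7D, a laboratory strain used in physiology, was grown in batch in SD medium, a synthetic medium, with 2% glucose. Cells were taken in log phase, when the culture is dividing, and at 2, 6 and 10 days, as a model of chronological ageing, the survival of yeast that no longer divides. By the sample labels the days run within stationary phase, while the design text speaks of days of cultivation, and which of these holds is not known. Each of the 4 times had 3 arrays, 12 in all, and no mutant, drug or other treatment is labelled. No label says that arrays of the same time are separate cultures, so errors and p-values cover the spread between these samples and possibly a technical spread alone.

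The yeast wall is a mesh of beta-1,3-glucan, to which beta-1,6-glucan, chitin and mannoproteins are attached. Glucan synthase at the plasma membrane spins out linear beta-1,3-glucan chains. The Gas enzymes then cut a chain and transfer the piece to the end of another, which lengthens it, and the Crh enzymes transfer chitin onto glucan. Bgl2, Scw4 and Scw10 are related secreted proteins of the wall, and Exg1 removes glucose from chain ends. A growing bud needs these enzymes to loosen and rebuild its wall, while stationary cells are known for a thick wall that resists digestion.

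The signals are the deposited log2 values of Affymetrix arrays, and each number below is on that log2 scale unless called a fold. A level of one gene cannot be set against a level of another, because probe sets differ in brightness. Probe sets for another yeast species on the same arrays gave a background, the 95th percentile of their signal, which was 5.79 to 5.84 as a mean per time. The 9 genes had means above it at all 4 times, and no gene was lost to a filter. In bulk RNA, fewer cells with a transcript and less transcript per cell cannot be told apart. Array medians were nearly equal, 7.80 to 7.89, so each value is relative to the rest of its array. If arrays were instead centred on 27 hybridisation control probe sets (control centring), every gene moved by -0.42 on day 2, -1.19 on day 6 and -0.97 on day 10 against log phase, by -0.77 from day 2 to day 6 and by 0.22 from day 6 to day 10. Among these controls bioB minus bioC was -2.17 ± 0.08 (SD, n = 3) in log phase and between -0.89 and -0.79 as a mean on the other days, so the log phase arrays stood apart. With bioB left out the same shifts were -0.05, -0.86, -0.64, -0.81 and 0.21. RNA integrity was read from 8 control genes as the signal at their 3' end minus that at their 5' end. This averaged 1.25 ± 0.07 in log phase and 0.86 ± 0.24 on day 2, and rose to 1.65 ± 0.05 for day 6 before 1.28 ± 0.07 for day 10 (SD, n = 3).

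UTR2 was high in log phase and low on all later days, while its relative CRH1 went the other way on the deposited scale. The log phase arrays of UTR2 read 9.76, 9.60 and 9.85. On day 2 they read 6.76, 6.74 and 6.56. Day 6 gave 6.31, 6.27 and 6.20 and day 10 gave 6.83, 6.93 and 6.86. The 3 log phase arrays lay above the other 9 by a wide margin, and day 6 lay below days 2 and 10 with no overlap. Day 10 lay above day 2 on the deposited scale only. Under control centring the differences from log phase were -3.47 on day 2 and -3.83 on day 10, and without bioB -3.10 and -3.51. Days 2 and 10 were not compared in a fit. Against log phase UTR2 was lower by -3.05 ± 0.07 on day 2, -3.48 ± 0.07 on day 6 and -2.86 ± 0.07 on day 10, which is 8.27-fold, 11.1-fold and 7.27-fold. In these comparisons it ranked 1, 2 and 3 from the lowest of the 5449 genes. On day 6 its mean stood 0.47 above the background, which limits how large a fold could be seen there. From day 6 to day 10 UTR2 was higher by 0.61 ± 0.07, or 1.53-fold. Across 22 other settings the difference from log phase stayed between -3.47 and -2.87 on day 2, between -4.66 and -3.23 on day 6 and between -3.83 and -2.70 on day 10.

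CRH1 read 8.78, 8.80 and 8.89 in log phase. It read 9.27, 9.76 and 9.95 on day 2, and 9.67, 9.58 and 9.44 on day 6. The day 10 arrays, at 10.16, 10.49 and 10.38, were the highest. On the deposited scale every later array lay above log phase, days 2 and 6 overlapped, and day 10 lay above both. The differences from log phase were 0.84 ± 0.14, 0.74 ± 0.14 and 1.52 ± 0.14 for days 2, 6 and 10, the last a 2.87-fold difference that ranked 294 from the highest. On day 2 the spread was wide, with an SD of 0.35: replicate 1 was the lowest for CRH1 and had the highest 3' minus 5' signal of that day, 1.13 against 0.75 and 0.69. With that signal as a covariate the day 2 difference was 0.31, the day 6 difference 1.27 and the day 10 difference 1.57. The day 6 difference was -0.45 under control centring and -0.11 if bioB was left out. Those of days 2 and 10 were then 0.42 and 0.55, and 0.79 and 0.88 without bioB. On these scales days 2 and 10 lay close together beside the day 2 SD.

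That UTR2 and CRH1 diverged can be read within each array, where no scaling of whole arrays enters, though the direction of either gene cannot. The log2 difference UTR2 minus CRH1 changed from its log phase mean by -3.89 ± 0.44 on day 2, -4.22 ± 0.06 on day 6 and, at day 10, -4.38 ± 0.12 (SD, n = 3). The ranges of day 2 and day 10 overlapped, with -4.30 as the lowest day 2 array and -4.24 as the highest day 10 array, so no further widening after day 2 can be read from these arrays.

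**Figure D1:**
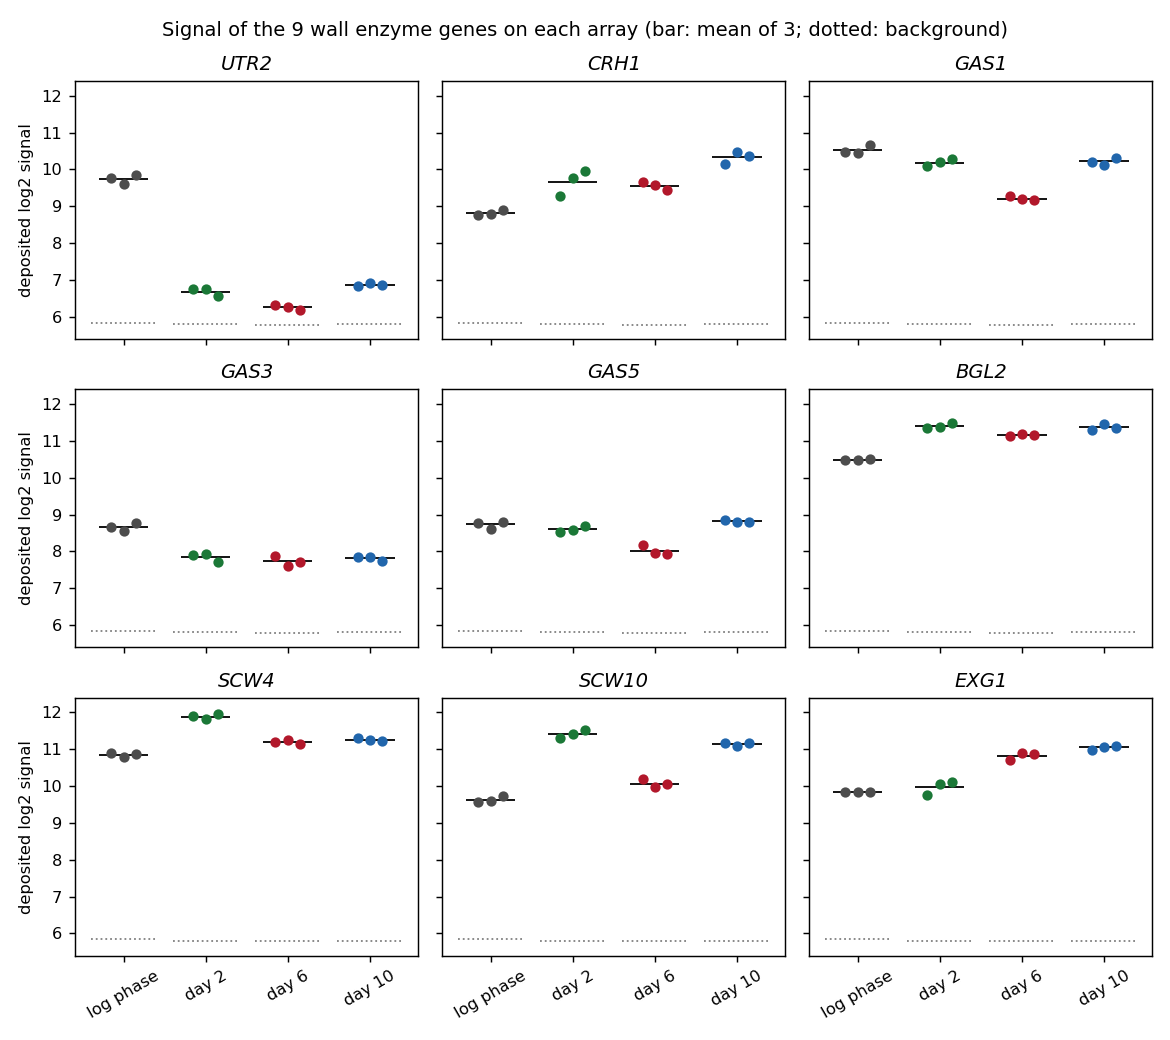
Deposited log2 signal (vertical axis) of the 9 genes on each of the 12 arrays (points) by time (horizontal axis), with the mean of 3 arrays as a bar and the background, the 95th percentile of probe sets of another species, as a dotted line. UTR2 drops from 9.73 in log phase to 6.26 on day 6, near the background line, while CRH1 climbs from 8.82 to 10.34 on day 10.

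Among the glucanosyltransferases, GAS1 and GAS5 had their lowest level on day 6 and stood higher again on day 10, whereas GAS3 was low on all later days. GAS1 encodes the main enzyme of the family in growing cells, anchored to the plasma membrane by a lipid. It read 10.48, 10.45 and 10.67 in log phase and 10.08, 10.20 and 10.28 on day 2. On day 6 it read 9.27, 9.20 and 9.17, and on day 10 it read 10.21, 10.13 and 10.32. The day 6 arrays lay below all others, and days 2 and 10 overlapped just below log phase. GAS1 was lower than in log phase by -0.35 ± 0.07 on day 2, -1.32 ± 0.07 on day 6 and -0.32 ± 0.07 on day 10. From day 2 to day 6 the difference was -0.98 ± 0.07 and from day 6 to day 10 it was 1.01 ± 0.07, or 2.01-fold, rank 184 from the highest of 5449.

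GAS5, a relative that is also active in growing cells, moved the same way by less. Its arrays read 8.78, 8.62 and 8.81 in log phase and 8.52, 8.60 and 8.69 on day 2. They read 8.17, 7.96 and 7.93 on day 6 and 8.85, 8.79 and 8.81 on day 10. Log phase overlapped with day 2 and with day 10, and day 6 lay below the rest. The differences from log phase were -0.13 ± 0.07, -0.71 ± 0.07 and 0.08 ± 0.07 for days 2, 6 and 10, the first and last within the overlap. From day 6 to day 10 GAS5 was higher by 0.79 ± 0.07. The day 2 difference passed the threshold used for all genes without log phase replicate 2, at -0.19, and under control centring, at -0.55. The day 10 difference turned to -0.89 when centred on the hybridisation controls, and to -0.56 without bioB.

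GAS3, the third family member here, read 8.67, 8.57 and 8.78 in log phase. It read 7.89, 7.92 and 7.73 on day 2, 7.87, 7.61 and 7.72 on day 6, and 7.85, 7.86 and 7.74 on day 10. The 3 later days overlapped with each other and lay below log phase, by -0.82 ± 0.08, -0.94 ± 0.08 and -0.85 ± 0.08. The GAS3 difference from day 2 to day 6 was -0.11 ± 0.08, and it was called at -0.88 under control centring and at -0.92 if bioB was left out. Within arrays, GAS1 minus GAS3 stood 0.48 ± 0.19 above its log phase mean on day 2, at -0.38 ± 0.10 on day 6 and at 0.54 ± 0.16 on day 10 (SD, n = 3). The relation of the 2 genes on day 6 thus lay below that of every other time, with no overlap.

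**Figure D2:**
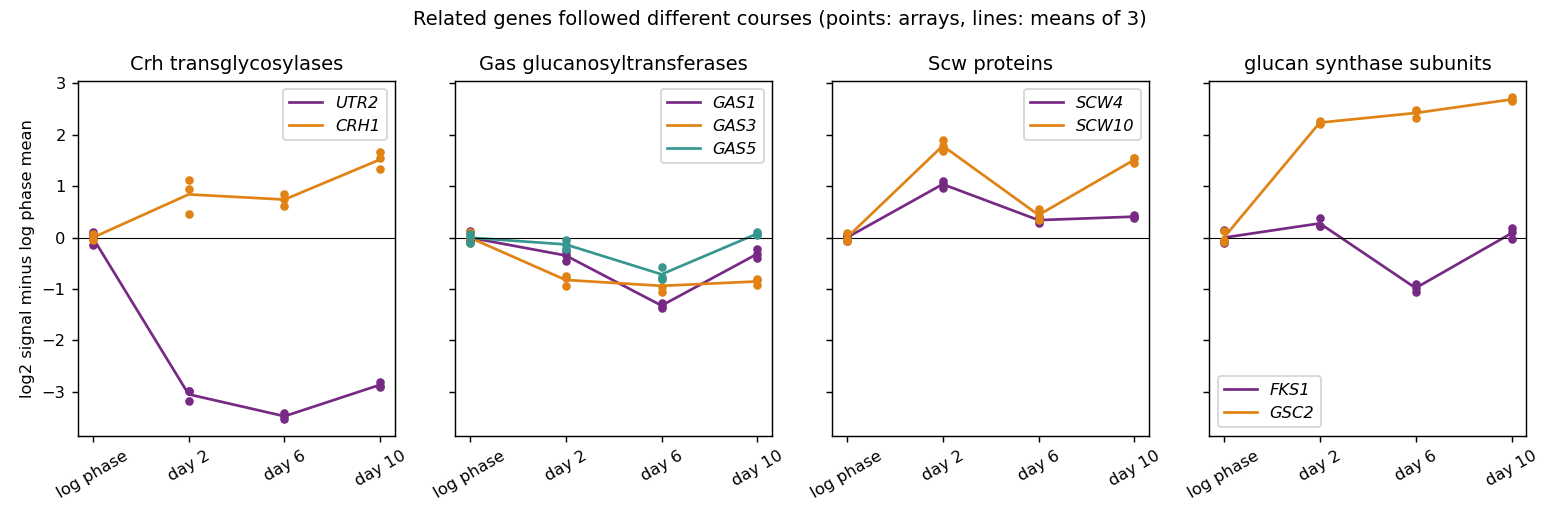
Log2 signal minus the log phase mean of the gene (vertical axis) by time (horizontal axis) for 4 groups of related genes, with arrays as points and means of 3 as lines. UTR2 and CRH1 diverge, GAS1 and GAS5 dip on day 6 with FKS1, SCW10 dips from its day 2 level, and GSC2 stays 2.24 to 2.69 above log phase.

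Of the glucanase group, SCW4 and SCW10 stood highest on day 2, BGL2 on days 2 and 10, and EXG1 on day 10. BGL2 encodes an abundant wall protein that cuts beta-1,3-glucan and can rejoin it. Its arrays read 10.48, 10.48 and 10.52 in log phase, 11.35, 11.39 and 11.49 on day 2, 11.12, 11.20 and 11.16 on day 6, and 11.30, 11.45 and 11.35 on day 10. All 9 later arrays lay above log phase, day 6 lay slightly below days 2 and 10, and those last days overlapped. The differences from log phase were 0.91 ± 0.06, 0.67 ± 0.06 and 0.87 ± 0.06. Under control centring they were 0.49, -0.52 and -0.10, and without bioB 0.87, -0.19 and 0.23.

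SCW4 and SCW10 encode soluble wall proteins that resemble Bgl2 and each other. SCW4 read 10.89, 10.78 and 10.87 in log phase, 11.89, 11.82 and 11.95 on day 2, 11.19, 11.25 and 11.13 on day 6, and 11.29, 11.25 and 11.22 on day 10. Its day 2 arrays lay above all others, and days 6 and 10 overlapped between day 2 and log phase. The differences from log phase were 1.04 ± 0.06, 0.34 ± 0.06 and 0.41 ± 0.06, and those of days 6 and 10 turned to -0.85 and -0.56 under control centring, and to -0.52 and -0.23 if bioB was left out.

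SCW10 read 9.56, 9.60 and 9.72 in log phase and 11.31, 11.41 and 11.52 on day 2. It read 10.18, 9.97 and 10.05 on day 6 and 11.17, 11.09 and 11.18 on day 10. The 4 times did not overlap and ran in the order log phase, day 6, day 10 and day 2 from the lowest. The differences from log phase were 1.79 ± 0.07, or 3.45-fold, on day 2, 0.44 ± 0.07 on day 6 and 1.52 ± 0.07 on day 10. Between the later days SCW10 differed by -1.35 ± 0.07 from day 2 to day 6 and by 1.08 ± 0.07 from day 6 to day 10, ranks 114 from the lowest and 145 from the highest. The day 6 difference from log phase turned to -0.75 under control centring, and to -0.42 if bioB was left out. Within arrays, SCW10 minus SCW4 stood 0.75 ± 0.10 above its log phase mean on day 2, 0.10 ± 0.14 on day 6 and, at day 10, 1.11 ± 0.06 (SD, n = 3). The rise of SCW10 over SCW4 was thus present on days 2 and 10, and on day 6 the relation overlapped with log phase.

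EXG1 encodes the main exo-glucanase, which works from chain ends. It read 9.85, 9.83 and 9.84 in log phase and 9.76, 10.06 and 10.11 on day 2. It read 10.71, 10.91 and 10.86 on day 6 and 10.99, 11.06 and 11.10 on day 10. Day 2 overlapped with log phase, days 6 and 10 lay above both, and day 10 lay just above day 6. The differences from log phase were 0.14 ± 0.08, 0.99 ± 0.08 and 1.21 ± 0.08, the last a 2.31-fold difference. From day 2 to day 6 EXG1 was higher by 0.85 ± 0.08, rank 229 from the highest, at a step where UTR2, GAS1, GAS5, BGL2, SCW4 and SCW10 were lower. That step was 0.0821 under centring on the hybridisation controls and 0.0429 without bioB, and the differences of days 6 and 10 from log phase were then -0.20 and 0.24, and 0.13 and 0.57. The day 2 difference turned to -0.28 under control centring and to -0.16 with the 3' minus 5' signal as a covariate, neither past the threshold. Without day 2 replicate 1, which had the lowest EXG1 level of that day, the day 2 difference was 0.24 and passed the threshold.

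**Figure D3:**
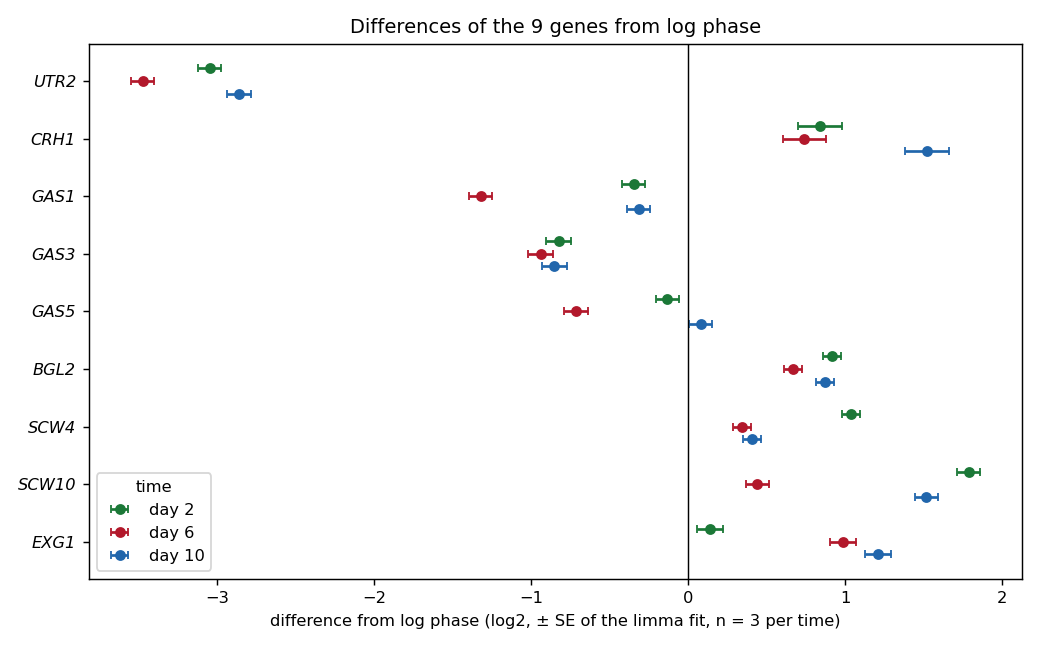
Difference of each gene from log phase (horizontal axis, log2, with the SE of the limma fit as bars, n = 3 arrays per time) on days 2, 6 and 10. UTR2 lies at -3.48 to -2.86 and GAS3 at -0.94 to -0.82 on all 3 days, and CRH1, BGL2, SCW4 and SCW10 lie above 0. Under control centring all 4 turn below 0 on day 6, and on day 10 BGL2 (-0.10) and SCW4 (-0.56) do. The day 6 point lies left of days 2 and 10 for every gene but EXG1, by little for CRH1, GAS3 and SCW4 against at least 1 of those days. How many of all genes share this course was not counted, so it is not read as a trait of these genes.

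The same threshold as for all genes, an adjusted p under 0.05 in limma over 5449 genes, was used to count the 9 genes. Because the genes were chosen with these comparisons known, nothing is read from the counts. On day 2 against log phase 4 were higher and 3 lower, where 39% of all genes were called higher and 41.5% lower. For day 6 the counts were 5 and 4 (all genes 41.6% and 41.1%), and for day 10 they were 5 and 3 (all genes 39.5% and 39.8%). From day 2 to day 6 only EXG1 was called higher and 6 were lower, against 35.2% and 31.9% of all genes. From day 6 to day 10 the 9 genes had 7 higher and 0 lower, against 28.8% and 32.1%. The exceptions at that last step were GAS3 at 0.09 ± 0.08 and SCW4 at 0.07 ± 0.06. The median of the 9 genes was 0.14, 0.34, 0.41, -0.43 and 0.61 in these 5 comparisons, beside -0.02, 0.00, -0.01, 0.02 and -0.02 over all genes. Under centring on the hybridisation controls the counts were 4 and 4, 0 and 8, 2 and 5, 0 and 8, and 7 and 0, and without bioB they were 4 and 3, 0 and 6, 3 and 4, 0 and 8, and 7 and 0. The split of all genes moved with the same centring, from 2127 higher and 2260 lower to 903 and 3037 on day 2, from 2266 and 2239 to 356 and 4555 on day 6 and from 2151 and 2170 to 381 and 4424 on day 10, all against log phase. From day 2 to day 6 it moved from 1920 and 1739 to 102 and 4571, and from day 6 to day 10 it moved from 1571 and 1748 to 1595 and 343. With bioB left out these splits were 1481 and 1804, 542 and 3993, 590 and 3674, 90 and 4641, and 1493 and 328.

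GAS1 and GAS5 were lowest on day 6, and SCW10, UTR2 and BGL2 were lower on day 6 than on days 2 and 10, without overlap. The day 6 means of CRH1, GAS3 and SCW4 also lay below days 2 and 10, with arrays overlapping at least 1 of them. Only EXG1 had its day 6 mean above that of day 2. How many of all genes were lower on day 6 than on both days 2 and 10 was not counted. Taken singly, 31.9% of all genes were called lower from day 2 to day 6 and 28.8% higher from day 6 to day 10. The day 6 low is therefore not read as a trait of these genes. Day 6 was also the time with the highest 3' minus 5' signal. Its arrays began at 1.59, where no array of another time passed 1.36, so day 6 and that signal cannot be told apart. In the fit the covariate takes its slope from the spread within times, which was widest on day 2 (SD 0.24 against 0.05 to 0.07). The values with the covariate thus lean on the day 2 arrays and decide nothing about day 6. With the 3' minus 5' signal as a covariate GAS1 was at -0.77 from day 2 to day 6 and 0.91 from day 6 to day 10, GAS5 at -0.51 and 0.76, and SCW10 at -1.15 and 0.99. UTR2 stood at -0.69 and 0.73, and BGL2 at -0.016 and 0.0991. CRH1 moved more under that covariate, from -0.10 ± 0.14 to 0.96 for day 6 against day 2 (-0.87 and -0.91 under the 2 centrings) and from 0.78 to 0.30 for day 10 against day 6. EXG1 went from 0.22 to -0.05 at the last step, and the 9 genes then had 4 called higher and 0 lower there.

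The likeness among the 9 genes was described pair by pair. Over the 12 arrays, which share 4 times and so are not independent points, the closest of the 36 pairs were UTR2 and GAS3 (Pearson r = 0.98) and GAS1 and GAS5 (r = 0.934), followed by BGL2 and SCW10 (r = 0.871). UTR2 and GAS3 shared the drop from log phase but not the later course. From day 2 to day 6 and on to day 10 UTR2 differed by -0.43 ± 0.07 and 0.61 ± 0.07, GAS3 by -0.11 ± 0.08 and 0.09 ± 0.08. The most opposed pairs were GAS3 and BGL2 (r = -0.912) and UTR2 and BGL2 (r = -0.909). In the RefSeq table of the S288C assembly R64, GAS1 and SCW10 have 1 protein-coding gene between them and BGL2 and SCW4 have 2. The neighbours GAS1 and SCW10 had r = 0.131, and BGL2 and SCW4 had r = 0.786.

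Genes with the most similar pattern were ranked by Pearson r over the same 12 arrays among 2066 or 2067 genes above background whose means spanned at least 1. For UTR2 these were RAS1 (r = 0.994), a GTPase that signals nutrient supply, SEC66 of protein entry into the endoplasmic reticulum (0.992), ALG7, the first enzyme of N-glycan assembly (0.992), DCD1, a deoxycytidylate deaminase (0.992), and GIM5 of the prefoldin chaperone (0.991). By ranks of the arrays (Spearman) the same genes had 0.937, 0.853, 0.888, 0.804 and 0.832. CRH1 was closest to PUN1 (0.976) and the transcription factor gene SMP1 (0.975). GAS1 was closest to the translation initiation factor genes GCD11 (0.994) and TIF4631 (0.982), and GAS5 to TIF2, another of them, (0.975) and ARO8 of aromatic amino acid synthesis (0.965). GAS3 lay nearest to NUP120 of the nuclear pore (0.987) and BNA4 of NAD synthesis (0.984). BGL2 lay nearest to GAT2 (0.993) and PAM1 (0.992), SCW4 to the vacuolar sorting receptor gene PEP1 (0.99) and the hexokinase-like gene EMI2 (0.989), SCW10 to COS7 (0.982) and BIO4 of biotin synthesis (0.98), and EXG1 to the phosphate transporter gene PHO89 (0.992) and YPL088W (0.982).

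The remaining wall genes were described from 10 lists of 114 genes, 111 of them measured, which do not contain the 9 genes. The few listed genes without a value were not analysed here. These lists too were drawn up with earlier results known. Of the 111 genes 58 rose and 27 fell on day 2 against log phase, 49 and 39 on day 6, and 53 and 38 on day 10, with a list-wide median of 0.24, 0.07 and 0.11, beside -0.02, 0.00 and -0.01 over all genes. Of all genes 39% were called higher and 41.5% lower on day 2, 41.6% and 41.1% on day 6, and 39.5% and 39.8% on day 10, and the counts of each list stand beside these shares. Control centring turned the balance of the 111 genes to 30 higher and 50 lower, 10 and 85, and 19 and 79. With bioB left out it was 46 and 20, 18 and 75, and 25 and 62. Each adjusted p below is from limma over all 5449 genes.

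Of the glucan synthase genes GSC2 stood high on all later days and FKS1 was low on day 6. FKS1 and GSC2 encode alternative catalytic subunits of beta-1,3-glucan synthase, with FKS1 used in growth and GSC2 known to be turned on at low glucose and under stress. GSC2 rose by 2.24 ± 0.06 on day 2 (adjusted p = 5.20e-12), 2.43 ± 0.06 on day 6 (adjusted p = 2.04e-12) and 2.69 ± 0.06 on day 10 (adjusted p = 1.99e-12). FKS1 fell by 0.98 ± 0.08 on day 6 against log phase (adjusted p = 6.03e-08), by 1.26 ± 0.08 from day 2 to day 6 (adjusted p = 2.69e-08), and rose by 1.07 ± 0.08 from day 6 to day 10 (adjusted p = 2.43e-07). Its level was 10.13 ± 0.14 in log phase, 10.41 ± 0.08 on day 2, 9.15 ± 0.08 on day 6 and, at day 10, 10.22 ± 0.11 (SD, n = 3), a day 6 minimum as in GAS1 and GAS5. For FKS1 too, day 6 cannot be told apart from the 3' minus 5' signal, which was highest on that day. Within arrays FKS1 minus GSC2 moved from its log phase mean by -1.96 ± 0.11, -3.41 ± 0.16 and -2.60 ± 0.08 on days 2, 6 and 10 (SD, n = 3). Of the 5 genes of the beta-1,3-glucan list 4 rose and 0 fell on day 2, 4 and 1 on day 6, and 4 and 0 on day 10. On the scale of the hybridisation controls these were 2 and 1, 1 and 2, and 1 and 2, and without bioB 3 and 0, 1 and 2, and 1 and 1. RHO1, the GTPase that activates the synthase, rose by 0.87 ± 0.08 on day 2 (adjusted p = 3.52e-07).

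Among 8 further relatives of the 9 genes 1 rose and 3 fell on each of days 2, 6 and 10 against log phase, with medians of -0.13, -0.08 and -0.03. On the scale of the hybridisation controls the counts were 0 and 7, 0 and 8, and 0 and 8, and without bioB 1 and 2, 0 and 8, and 0 and 7. SCW11 and DSE4, glucanases that free the daughter cell from its mother, were low on day 10, at -1.51 ± 0.10 (adjusted p = 1.43e-08) and -1.29 ± 0.13 (adjusted p = 9.67e-07). Their day 10 arrays were uneven, with an SD of 0.26 and 0.35, against 0.04 for each gene in log phase. EXG2, a second exo-glucanase, fell by 1.03 ± 0.06 on day 6 (adjusted p = 1.40e-09), where its relative EXG1 was higher. The relative that rose on days 2 and 6 was CRR1, a Crh family gene of spore wall formation, by 0.59 ± 0.07 on day 2 (adjusted p = 3.55e-06). On day 10 it was GAS2, a Gas family gene of spores, by 0.60 ± 0.07 (adjusted p = 5.78e-06). These values were 0.17 for CRR1 and -0.37 for GAS2 under centring on the hybridisation controls, and 0.54 and -0.0456 without bioB.

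Genes of mother-daughter separation fell in 4 of 7 cases and rose in 1 on day 2, fell in 5 on day 6 and in 6 on day 10, with none rising on those days, and their median reached -1.38 on day 10. DSE2 fell by 1.66 ± 0.21 (adjusted p = 8.52e-06), EGT2 by 1.59 ± 0.12 (adjusted p = 4.76e-08) and DSE1 by 1.59 ± 0.16 (adjusted p = 8.86e-07) on day 10. The day 10 arrays were uneven, which the SE, pooled over the 4 times, does not show. Their SD was 0.62 for DSE2, 0.31 for EGT2, 0.46 for DSE1 and 0.90 for CTS1, against 0.03 to 0.04 in log phase. CTS1 was among the 6 lower on day 10 (-0.82 ± 0.30, adjusted p = 0.0234), but its arrays overlapped with log phase. The chitinase gene CTS1 rose on day 2, by 1.09 ± 0.30 (adjusted p = 0.00449), a call lost with the 3' minus 5' signal as a covariate (0.93). After centring on the hybridisation controls the separation genes had 1 higher and 4 lower on day 2, and 0 and 7 on both other days, and without bioB 2 and 4, 0 and 7, and 0 and 7. In the SUN family, whose members are also secreted wall proteins, NCA3 rose by 5.19 ± 0.11 on day 10 (adjusted p = 7.89e-13) while SUN4, needed for septation, fell by 2.09 ± 0.10 (adjusted p = 6.14e-10). NCA3 started from a log phase mean of 6.09, close to the background of 5.84. The day 10 arrays of SUN4 were uneven as well, with an SD of 0.26 against 0.09 in log phase. Of the 4 SUN genes 3 rose and 1 fell on day 2, and 2 rose and 2 fell on days 6 and 10, with 1 and 2 on day 6 under either centring.

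The cell wall integrity pathway senses wall stress and passes it through a kinase cascade to the MAP kinase Slt2 and the transcription factor Rlm1. Of its 25 measured genes 18 rose and 2 fell on day 2 (all genes 39% and 41.5%), 16 rose and 4 fell on day 6 (all genes 41.6% and 41.1%), and 17 rose and 4 fell on day 10 (all genes 39.5% and 39.8%), with medians of 0.51, 0.49 and 0.44. After centring on the hybridisation controls the counts were 8 and 7, 0 and 18, and 5 and 16, and without bioB 14 and 1, 5 and 13, and 6 and 11. The direction of the list on days 6 and 10 thus depends on the scale. On day 2 the excess of higher genes was nearly lost under control centring and kept without bioB. RLM1 rose by 1.36 ± 0.05 on day 6 (adjusted p = 3.78e-11) and 1.71 ± 0.05 on day 10 (adjusted p = 1.12e-11). The day 6 call of RLM1 was lost under control centring, where 0 genes of the list were called higher. SLT2 rose by 1.39 ± 0.07 from day 2 to day 6 (adjusted p = 6.59e-09) and stood 1.81 ± 0.07 above log phase on day 10 (adjusted p = 1.12e-10), with the phosphatase gene PTP2 at 1.93 ± 0.07 (adjusted p = 4.87e-11). MTL1, a sensor of the pathway, rose by 1.60 ± 0.10 on day 2 (adjusted p = 5.31e-09), from a log phase mean of 5.93 close to the background of 5.84.

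Among 18 wall proteins with a GPI anchor or wall location 11 rose and 3 fell on day 2, 5 rose and 9 fell on day 6, and 6 rose and 7 fell on day 10. After centring on the hybridisation controls these were 6 and 6, 4 and 14, and 4 and 13, and without bioB 8 and 3, 4 and 13, and 4 and 12. PST1, which is known to rise when the wall is damaged, was at 2.51 ± 0.10 on day 6 (adjusted p = 7.78e-11) and 3.43 ± 0.10 on day 10 (adjusted p = 1.06e-11). SED1, a major wall protein of stationary cells, rose by 2.39 ± 0.07 on day 10 (adjusted p = 7.73e-12). TIP1 was first above and then below log phase. Its mean level was 9.44 ± 0.09 in log phase and 11.21 ± 0.13 in the day 2 arrays. By day 6 TIP1 had dropped to 6.90 ± 0.09, a larger fall from day 2 than that of TOS1. The day 10 arrays of TIP1 averaged 7.48 ± 0.26 (each ± is the SD of 3 arrays). From day 2 to day 6 this list had 2 genes that rose and 13 that fell (all genes 35.2% and 31.9%), and from day 6 to day 10 it had 8 and 1 (all genes 28.8% and 32.1%). TOS1 fell by 1.74 ± 0.07 (adjusted p = 8.06e-10) and then rose by 1.20 ± 0.07 (adjusted p = 3.67e-08), as did CIS3 of the PIR proteins, by 1.90 ± 0.07 (adjusted p = 4.00e-10) and 1.57 ± 0.07 (adjusted p = 6.27e-09). With the 3' minus 5' signal as a covariate the counts of the GPI list were 1 and 3, then 4 and 0. Of the 5 PIR genes 2 rose and none fell on day 2, 2 and 3 on day 6, and 3 and 1 on day 10. On the control scale these were 2 and 3, 1 and 3, and 2 and 2, and without bioB 2 and 0, 2 and 3, and 3 and 2. PIR3 had the largest rise of the list, 5.03 ± 0.11 on day 10 (adjusted p = 7.89e-13).

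Genes of chitin synthesis split evenly, 6 higher and 7 lower of 15 on day 2, 5 and 6 on day 6, and 7 and 6 on day 10, with medians of -0.05, -0.01 and 0.03. CHS1, the chitin synthase that repairs the wall after division, rose by 2.54 ± 0.09 on day 10 (adjusted p = 2.56e-11), and CHS2, the synthase of the septum, fell by 1.11 ± 0.08 (adjusted p = 2.65e-08). On the control scale the chitin counts were 2 and 9, 1 and 11, and 1 and 12, and without bioB 4 and 4, 2 and 11, and 2 and 9. Of 12 genes of beta-1,6-glucan synthesis 6 rose and 4 fell on day 2, 8 and 3 on day 6, and 6 and 5 on day 10. KRE6, a main gene of that pathway, rose by 1.31 ± 0.07 on day 10 (adjusted p = 9.39e-10) and KEG1, whose product binds Kre6, fell by 1.27 ± 0.10 on day 6 (adjusted p = 3.37e-08). On the control scale the beta-1,6-glucan counts were 3 and 6, 0 and 12, and 1 and 9, and without bioB 5 and 3, 0 and 9, and 3 and 6. Among 12 genes of GPI protein and wall processing 6 rose and 3 fell on day 2, 6 and 3 on day 6, and 7 and 4 on day 10. The aspartyl protease genes YPS1 and YPS3 rose by 2.68 ± 0.12 (adjusted p = 3.09e-10) and 2.70 ± 0.12 (adjusted p = 1.97e-10) on day 10, whereas MKC7 of the same family fell by 1.74 ± 0.08 on day 6 (adjusted p = 1.69e-10). For this last list the centred counts were 3 and 6, 2 and 8, and 3 and 8, and without bioB 4 and 2, 3 and 7, and 4 and 5.

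**Figure D4:**
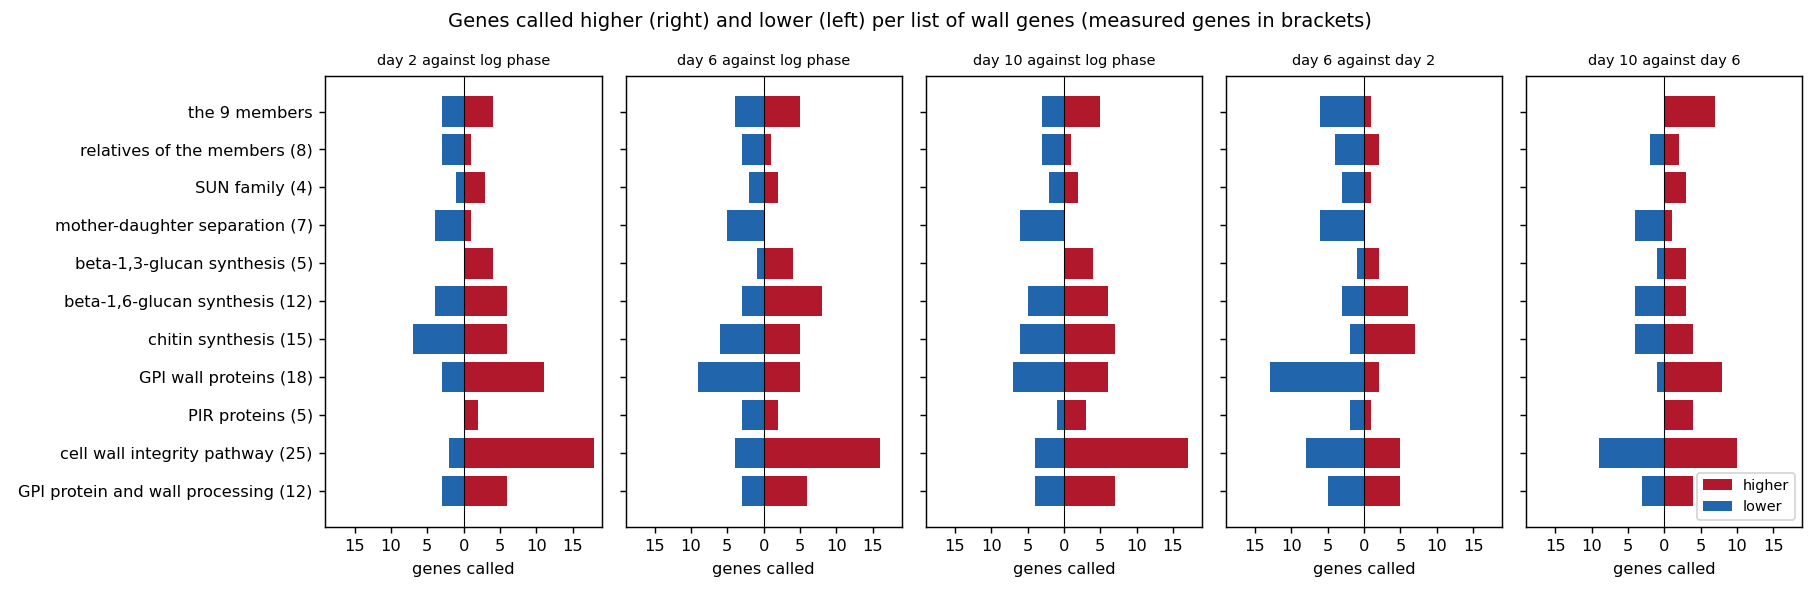
Number of genes called (horizontal axis; higher to the right in red, lower to the left in blue, adjusted p under 0.05 in limma) for the 9 genes and 10 lists of other wall genes (vertical axis, measured genes in brackets) in 5 comparisons. The cell wall integrity pathway has 18 of 25 genes higher on day 2 (8 under control centring), where 39% of all genes are higher, and mother-daughter separation has 6 of 7 lower on day 10, where 39.8% of all genes are lower. From day 6 to day 10 the 9 genes have 7 higher and 0 lower (4 and 0 with the 3' minus 5' covariate), beside 28.8% and 32.1% of all genes.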

How the data were processed

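The authors' deposited values are log2 probe set summaries, 1 column per array and 12 in all. They were made with PLIER, which summarises probes into 1 signal, per the submitters' processing notes. How background was corrected and arrays were scaled is not given in the sources used here. That the scale is log2 was inferred from the range, 5.11 to 13.79. Of 10928 probe sets 7244 had 1 gene, and 5498 of these matched a gene ID of the RefSeq S288C table (5449 genes). Where a gene had more than 1 probe set (47 genes) the brightest was used, and each of the 9 genes had 1. The 1746 probe sets of another species gave the background. No genome was used, and coordinates and sequences are not given.

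A linear model with 1 coefficient per time was fitted to the 12 arrays together by limma 3.58.1 under R 4.3.3 (8 residual degrees of freedom, 4.89 from the prior), with Benjamini-Hochberg adjustment within each comparison over 5449 genes. The fit was tested on simulated data over 5449 genes, with day 2 and log phase as the compared times, and recovered 48% of genes changed by 0.25, 90% at 0.5 and 100% at 1 and at 2 on the log2 scale, with 10 false calls. Only 50 genes were changed per size, with independent noise for each gene. In the data 39% of genes were called higher and 41.5% lower on day 2. The simulation therefore checks the code and does not give the recovery or false calls of the real comparisons. The genes, lists and tests were chosen with earlier results of these data known. Named genes are the 9 genes, up to 3 called genes per list and comparison with the largest difference, a gene called alone in its direction, and the genes most like each of the 9. FKS1 and GSC2 were set side by side within arrays after their values were seen. Same-numbered arrays did not pair: the correlation of their deviations ran from -0.29 to 0.393 with a median of 0.011. All 12 deposited columns were used. The alternatives, 22 settings with each array left out in turn, are given in the closing section.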

Additional observations from a re-analysis of the deposited data

How the results depend on the processing

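Under 22 settings the direction of UTR2, GAS1, GAS3 and SCW10 against log phase held throughout, except SCW10 on day 6. Results that turned sign and passed the threshold in at least 1 of the fits did so under 2 ways of centring and 1 covariate, and the cause was not tested beyond the shift that centring itself applies. Centred on the hybridisation controls, day 6 against log phase gave CRH1 -0.45, BGL2 -0.52, SCW4 -0.85, SCW10 -0.75, EXG1 -0.20, CHS5 -0.11, CRR1 -0.95, KRE1 -0.35 and SKN1 -0.50. Day 10 against log phase gave GAS5 -0.89, BGL2 -0.10, SCW4 -0.56, FKS3 -0.23, GAS2 -0.37 and RHO1 -0.10. Day 6 against day 2 gave CHS7 -0.26, CWH41 -0.19, FKS3 -0.0152, GSC2 -0.58, KNH1 -3e-04 and SKT5 -0.20. Without bioB, day 6 against log phase gave CRH1 -0.11, BGL2 -0.19, SCW4 -0.52, SCW10 -0.42, CRR1 -0.62, KRE1 -0.0137 and SKN1 -0.16. Day 10 against log phase then gave GAS5 -0.56, SCW4 -0.23 and GAS2 -0.0456, and day 6 against day 2 gave CHS7 -0.30, CWH41 -0.23, FKS3 -0.0544, GSC2 -0.62, KNH1 -0.0395 and SKT5 -0.24. With the 3' minus 5' signal as a covariate, day 6 against day 2 gave CRH1 0.96, CHS7 -0.0131, PIR1 0.42, SKT5 -0.0077 and YPS1 0.0671, and EXG1 was at -0.049 for day 10 against day 6. The genes called from day 6 to day 10 were 3319 as reported, 1938 under control centring and 1821 if bioB was left out. From day 2 to day 6 they were 3659 as reported and 1636 with the covariate. Of the 9 genes 7 were called from day 6 to day 10, and 4 with the covariate. The largest called genes of the 10 lists gave 155 results over the 5 comparisons. Of these, 19 kept their sign but lost their call under control centring, 12 if bioB was left out and 18 with the covariate. Leaving out 1 array in turn ended a call 26 times over all 12 fits.

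No call of the 9 genes changed with an offset of 16, a filter on dim genes, the mean of probe sets, a trend and robust prior, the 6 arrays of a comparison alone, or the replicate number as a block, which called 4370, 4493, 4303, 3626 and 3299 genes in the 5 comparisons. Quantile normalization ended the calls of BGL2 from day 2 to day 6 (-0.09) and EXG1 from day 6 to day 10 (0.14). The covariate ended those of GAS5 (-0.51) and BGL2 (-0.016) from day 2 to day 6, and of CRH1 (0.30) and BGL2 (0.0991) from day 6 to day 10. Centring ended those of EXG1 from day 2 to day 6 (0.0821, and 0.0429 without bioB) and on day 10 (0.24), and without bioB those of EXG1 on day 6 (0.13) and BGL2 on day 10 (0.23). With 1 array left out in turn, the 9 genes had 7 to 8, 9 to 9, 8 to 8, 7 to 8 and 6 to 7 calls in the order of the comparisons. EXG1 from day 6 to day 10 lost its call without day 6 replicate 1 (0.17), day 6 replicate 3 (0.24), day 10 replicate 2 (0.22) or day 10 replicate 3 (0.20). CRH1 from day 2 to day 6 was called at -0.29 without day 2 replicate 1 and at -0.87 and -0.91 under the 2 centrings, as was GAS3 at -0.88 and -0.92, and GAS5 on day 2 was called at -0.55 under the first. Without a call in any of these fits, CRH1 from day 2 to day 6 turned to 0.0098 under quantile normalization and to 0.0425 without day 2 replicate 3, and EXG1 on day 2 turned to -0.28 under control centring and -0.16 with the covariate. The number of arrays and, for UTR2, the closeness to background limit the precision. MTL1, NCA3 and PIR3 also lay close to the background in log phase, at 5.93, 6.09 and 6.35 beside 5.84. The size of their rises is limited in the same way.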
